A study of Mus musculus with 24 samples.

Results

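Untreated bone marrow-derived macrophages labelled TBK1-cKD control were set against untreated TBK1-WT control macrophages, to ask what loss of the kinase TBK1 alone does to resting cells. The 6 libraries, 3 of each group, were chosen by their titles from 24 RNA-seq libraries of mouse macrophages. TBK1-cKD control carries the altered TBK1 gene and TBK1-WT control carries unaltered TBK1. Both are marked ∆control in the titles, which do not say what ∆control is. The series' design text describes TBK1-cKD as a conditional knockout. The sources used here do not give the allele, the exons removed, the Cre driver or the age of the mice. Bone marrow cells were grown with M-CSF, the growth factor that drives macrophage differentiation, and per the labels' protocols each replicate came from a separate mouse. The other 18 libraries are TBK1-cKD and TBK1-WT cells with an IKKe knockout (∆IKKe), untreated, and all 4 genotypes after 8 h of R837, a TLR7 agonist also called imiquimod.

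The Tbk1 gene encodes TBK1 and the Ikbke gene encodes IKKe, non-canonical kinases of the IkB kinase family. Downstream of STING, MAVS and TRIF, the adaptors for cytosolic DNA, viral RNA and TLR3/TLR4, they phosphorylate the transcription factor IRF3, which switches on type I interferon, and interferon then acts through STAT factors and IRF9 on the interferon-stimulated response element (ISRE) of its target genes. TBK1 also restrains cell death through RIPK1 and phosphorylates receptors of selective autophagy. Macrophages hold a low basal level of interferon-stimulated genes without any infection.

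The sum of gene counts was 24.6 to 40.3 M in TBK1-cKD control and 26.5 to 40.9 M in TBK1-WT control. Defining macrophage markers were abundant in both groups: the summed level of 10 markers was 20305 to 21628 CPM, which are counts per 1e6 gene counts, in TBK1-cKD control, against 19351 to 20771 CPM in TBK1-WT control. Adgre1, which encodes F4/80, had 2288 to 2380 CPM in TBK1-cKD control and 2430 to 2528 CPM in TBK1-WT control. Replicates of a group correlated over genes at r = 0.9971 to 0.9982. By chi-square per degree of freedom on the counts, replicate 1 stood apart from the other replicates in both groups. The values were 8.49 and 9.27 against 2.92 in TBK1-cKD control, and 5.32 and 5.38 against 3.21 in TBK1-WT control. This measure grows with depth, and replicate 1 was the deepest library of each group. In TBK1-WT control the correlation of replicates 1 and 2 equalled that of replicates 2 and 3 (0.9982). Genes were tested with edgeR's quasi-likelihood test over the 12 untreated libraries, with Benjamini-Hochberg adjusted p over 14256 genes and a threshold of 0.05. Levels of single genes are CPM scaled by edgeR's trimmed mean of M values, and every change is a log2 ratio of TBK1-cKD over TBK1-WT.

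In TBK1-cKD control 1525 genes were higher, 10.7% of those tested, and 1529 were lower, also 10.7%, so that 21.4% were called in either direction. Most changes were small: 81 called genes (0.568%) were higher by 2-fold or more and 157 (1.10%) were lower by 2-fold or more. The untreated replicates lay close together, with a common biological coefficient of variation of 0.0464. Over all 24 libraries, where the R837 libraries spread more widely, it was 0.1158, and the same contrast then called 353 genes higher and 389 lower. Leaving out replicate 2 or 3 of TBK1-cKD control or replicate 1 of TBK1-WT control gave 937, 1015 and 1006 genes higher. The counts of calls therefore depend on which libraries enter the fit.

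**Figure D1:**
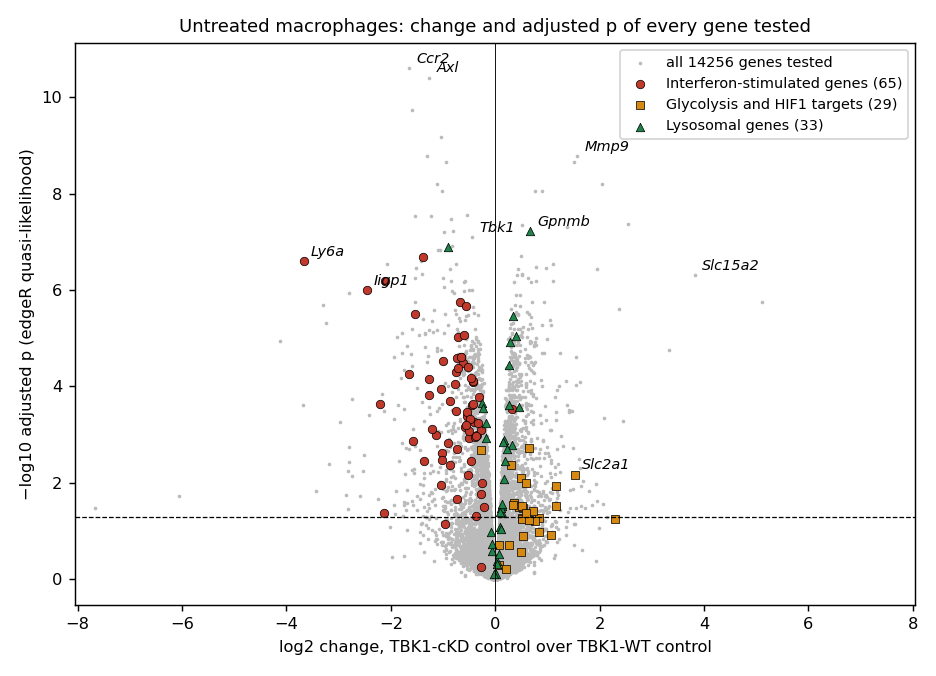
Log2 change (x axis, TBK1-cKD control over TBK1-WT control) against −log10 of the adjusted p (y axis, edgeR) for 14256 genes in untreated macrophages. Grey points are all genes, red circles 65 interferon-stimulated genes, orange squares 29 glycolysis and HIF1 targets and green triangles 33 lysosomal genes. The dashed line marks an adjusted p of 0.05. The red circles lie left of 0 apart from 1 member.

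The promoters of 4 interferon-stimulated genes and 2 genes of glycolysis are shown because most called members of the first list were lower and most called members of the second were higher. The 6 genes were chosen after their values were seen, from members with an ISRE or HIF core match in the bases printed. Their matches therefore do not show how common the cores are. Each sequence is the 150 bases before the RefSeq transcription start on GRCm38.p6, read 5′ to 3′ on the gene's own strand. Capitals mark the core letters of an ISRE (GAAA, any 2 bases, then GAAA, on either strand, with overlapping matches joined) or of a HIF site (ACGTG, either strand).
Ifit1, chr19:34640739-34640888, plus strand: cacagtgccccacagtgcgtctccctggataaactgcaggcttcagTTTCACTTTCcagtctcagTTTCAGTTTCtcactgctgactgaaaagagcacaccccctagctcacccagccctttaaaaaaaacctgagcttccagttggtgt
Isg15, chr4:156200819-156200968, minus strand: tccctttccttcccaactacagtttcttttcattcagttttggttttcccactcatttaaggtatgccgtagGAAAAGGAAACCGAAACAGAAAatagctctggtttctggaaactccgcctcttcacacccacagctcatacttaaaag
Rsad2, chr12:26456453-26456602, minus strand: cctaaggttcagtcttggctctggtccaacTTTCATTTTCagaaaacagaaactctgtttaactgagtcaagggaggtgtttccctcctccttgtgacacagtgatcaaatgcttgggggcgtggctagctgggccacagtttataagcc
Irgm1, chr11:48871421-48871570, minus strand: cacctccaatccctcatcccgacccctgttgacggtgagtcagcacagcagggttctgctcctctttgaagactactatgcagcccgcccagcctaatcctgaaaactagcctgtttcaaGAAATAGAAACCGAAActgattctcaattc
Slc2a1, chr4:119108595-119108744, plus strand: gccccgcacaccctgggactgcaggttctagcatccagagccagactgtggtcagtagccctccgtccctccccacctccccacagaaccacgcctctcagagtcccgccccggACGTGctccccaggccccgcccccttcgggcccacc
Ldha, chr7:46845654-46845803, plus strand: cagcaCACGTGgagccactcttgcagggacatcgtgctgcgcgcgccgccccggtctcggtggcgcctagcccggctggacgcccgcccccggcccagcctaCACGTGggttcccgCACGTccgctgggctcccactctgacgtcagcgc

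In a window of 250 bases before to 50 after the start, the ISRE core was found in 28 of the 49 interferon-stimulated genes with a promoter in the table (57.1%), against 3.3% of the 9911 tested genes with one. The same core stood in 7.7% of the promoters of genes that were lower in TBK1-cKD control, in 17.5% of those lower by 2-fold or more and in 1.8% of those that were higher. The sets of lower genes include listed interferon-stimulated genes, so their shares are not independent of the 57.1%. The HIF core stood in 15 of 26 promoters of the glycolysis and HIF1 list (57.7%), against 25.9% of tested genes and 29.9% of the genes that were higher. Within the list it did not go with the call: most members called higher lacked it, and most that did not pass the test had it. These are matches of letters, and binding was not measured.

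Tbk1 itself lies on chr10:121546455-121586787 of GRCm38, minus strand. It had 84.8, 82.9 and 81.7 CPM in TBK1-cKD control, against 113, 116 and 112 CPM in TBK1-WT control. The groups did not overlap, and the change was −0.45 ± 0.032 (SE, adjusted p = 7.93e-08). Much Tbk1 RNA was thus still counted in the libraries labelled TBK1-cKD. Gene counts sum over all exons, so RNA from exons outside a deletion enters them, and the protein was not measured. Ikbke, on chr1:131254343-131279606, had 79.5, 82.6 and 84.8 CPM in TBK1-cKD control and 65.8, 66.6 and 66.5 CPM in TBK1-WT control. It was higher by 0.31 ± 0.036 (SE, adjusted p = 1.55e-05). Per length, in the deposited RPKM, Tbk1 stood at 24.9, 24.03 and 23.5 in TBK1-cKD control and at 34.0, 34.5 and 33.6 in TBK1-WT control. Ikbke stood at 21.3, 21.9 and 22.3 RPKM in TBK1-cKD control and at 18.0, 18.2 and 18.2 RPKM in TBK1-WT control, so the levels of these genes lay closer together in TBK1-cKD cells. Of the canonical kinases, Chuk (IKK alpha) had 14.1 to 15.3 RPKM in TBK1-cKD control and 14.8 to 15.3 RPKM in TBK1-WT control, and Ikbkb (IKK beta) 20.7 to 21.1 RPKM in TBK1-cKD control and 20.9 to 21.9 RPKM in TBK1-WT control. The changes of both, 0.02 and 0.02, did not pass the test.

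**Figure D2:**
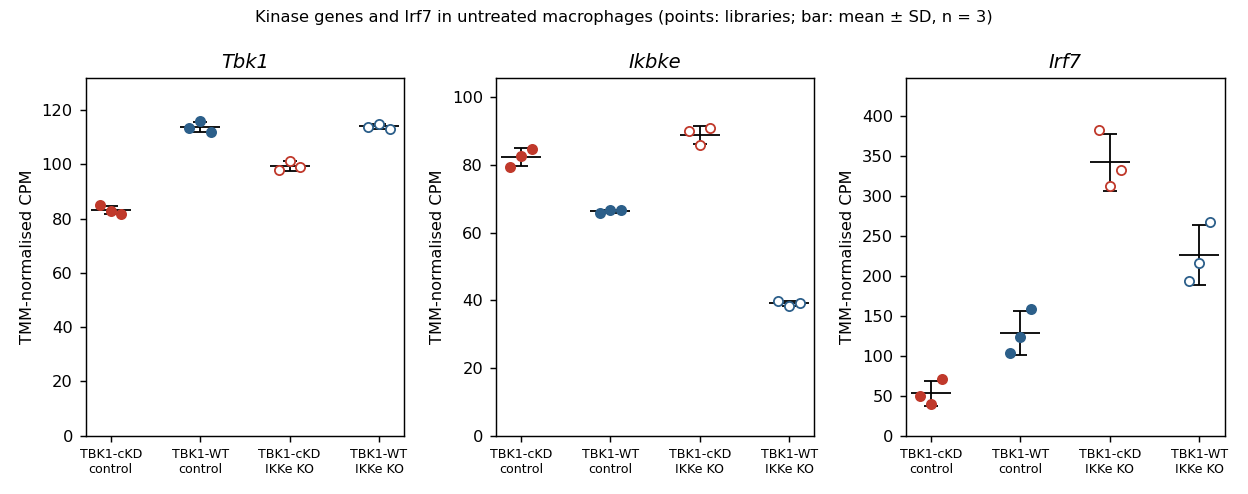
TMM-normalised CPM (y axis) of Tbk1, Ikbke and Irf7 in the 4 untreated groups of 3 libraries (x axis). Points are libraries, and the bars are the mean ± SD. Tbk1 was lower in the libraries labelled TBK1-cKD in both backgrounds, by 0.45 in control and by 0.20 in IKKe knockout cells on the log2 scale, and Irf7 was lower in TBK1-cKD control and higher in TBK1-cKD IKKe knockout cells.

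Of 30 tested genes of the IKK family and its adaptors and partners, 4 were higher and 6 were lower in TBK1-cKD control. These counts include Ikbke and Tbk1, described above. Among all genes tested, 10.7% were called in each direction. Tmem173, which encodes STING, was lower by 0.33 ± 0.041 (SE, adjusted p = 2.55e-05), with 64.9, 61.8 and 66.3 CPM in TBK1-cKD control and 78.0, 80.9 and 84.3 CPM in TBK1-WT control. Irf7, the interferon-inducible partner of IRF3, had 49.8, 39.6 and 70.4 CPM in TBK1-cKD control, against 103, 123 and 159 CPM in TBK1-WT control, a change of −1.27 (adjusted p = 6.86e-05). Tab2, an adaptor of the TAK1 kinase, changed by −0.25, the deubiquitinase Cyld by −0.15 and the kinase Ripk1 by −0.12. The TBK1 adaptor Tank rose by 0.19, the ubiquitin ligase Traf3 by 0.16 and Ikbkg, the regulatory subunit NEMO, by 0.16. Mavs, Ticam1 (TRIF), Irf3 and the autophagy receptors Optn and Sqstm1 had changes of 0.02, 0.11, 0.07, 0.09 and 0.02, none past the test. N4bp1, an inhibitor of NF-kB signalling that the series' title names, had 58.8, 56.9 and 58.8 CPM in TBK1-cKD control and 60.4, 57.4 and 59.8 CPM in TBK1-WT control (adjusted p = 0.727). Casp8 had 84.1, 83.2 and 82.9 CPM in TBK1-cKD control and 89.8, 85.4 and 87.7 CPM in TBK1-WT control (adjusted p = 0.16). In the fit of all 24 libraries the calls of Ikbke, Tmem173, Cyld, Ripk1, Tank, Traf3 and Ikbkg were lost. The calls of Tank and Traf3 were also lost without replicate 1 of TBK1-cKD control, that of Traf3 without replicate 1 of TBK1-WT control, that of Tank without replicate 3 of TBK1-WT control and that of Ripk1 without replicate 3 of TBK1-cKD control.

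Interferon-stimulated genes were lower in TBK1-cKD control almost throughout. Of 69 listed genes 65 were tested; 62 of these were lower (95.4%, background 10.7%), 1 was higher, and Ifi205 (−0.95, adjusted p = 0.0701) and Ifit1bl2 (−0.27, adjusted p = 0.547) did not pass the test. The median change was −0.65. Their decrease was seen in every TBK1-cKD library: relative to the TBK1-WT mean, the median member stood at −0.55, −0.83 and −0.59 on the log2 scale in the TBK1-cKD libraries and at −0.12, 0.00 and 0.10 in the TBK1-WT libraries. Ifit1, an RNA-binding antiviral protein whose promoter is printed above, had 18.3, 10.5 and 14.8 CPM in TBK1-cKD control, against 28.2, 32.7 and 37.0 CPM in TBK1-WT control, a change of −1.13 ± 0.21 (SE, adjusted p = 0.00103). Isg15, a ubiquitin-like modifier, had 14.4, 11.2 and 15.1 CPM in TBK1-cKD control and 19.7, 22.7 and 26.8 CPM in TBK1-WT control. Rsad2, which encodes the antiviral enzyme viperin, had 30.1, 22.99 and 25.8 CPM in TBK1-cKD control and 51.3, 55.6 and 55.4 CPM in TBK1-WT control. Irgm1, a GTPase that acts on vacuoles of intracellular pathogens, had 79.0, 64.8 and 70.1 CPM in TBK1-cKD control and 102, 105 and 109 CPM in TBK1-WT control. The groups did not overlap for these 4 genes, which were chosen after their values were seen; over all genes 17.6% did not overlap and were lower and 17.8% did not overlap and were higher. Replicate 2 of TBK1-cKD control was the lowest library for each.

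The fall was steepest for Ly6a, the surface protein Sca-1. It had 0.517, 0.366 and 1.03 CPM in TBK1-cKD control and 6.39, 6.97 and 10.9 CPM in TBK1-WT control, a change of −3.67 ± 0.28 (SE, adjusted p = 2.5e-07). Its relative Ly6e, a surface protein at a much higher level, had 165, 148 and 197 CPM in TBK1-cKD control and 399, 409 and 531 CPM in TBK1-WT control, a change of −1.39. Iigp1, a GTPase of the same family as Irgm1, fell by 2.46, with 1.85, 1.18 and 1.70 CPM in TBK1-cKD control and 8.72, 9.28 and 8.79 CPM in TBK1-WT control. Ms4a4c, a membrane protein, fell by 2.11, and Ifi206, a gene of the interferon-inducible p200 family, by 1.94. Cxcl10, a chemokine that attracts T cells, had 3.40, 1.51 and 1.74 CPM in TBK1-cKD control and 7.34, 7.94 and 5.85 CPM in TBK1-WT control, a change of −1.58. Zbp1, a sensor of Z-form nucleic acid that can start cell death, fell by 0.99. The exception was Ifi27, which rose by 0.33. With all 24 libraries in the fit 42 members of the list were called lower, and the call of Ifi27 was lost. Several of these genes have near-identical neighbours, and reads shared among them are uncertain.

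Of 16 tested interferon regulatory factors and STATs 9 were lower (56.2%, background 10.7%) and 7 did not pass the test. The median change was −0.17. Irf7, described above, is on this list, and Irf7, Stat2 and Irf9 are also counted among the interferon-stimulated genes. Stat2 fell by 0.44 and Irf9, which binds DNA in a complex with STAT factors, by 0.27. Irf4, a factor of dendritic cells and alternatively activated macrophages, fell by 0.61. Of 8 tested genes on the list of interferon genes and receptors 3 were lower (37.5%, background 10.7%). They were Ifnar2, a chain of the type I receptor (−0.16), Ifngr1, a chain of the interferon gamma receptor (−0.20), and Socs3 (−0.79). Socs3, a suppressor of cytokine signalling, is neither an interferon nor a receptor. Its mean was 0.73 CPM in TBK1-cKD control and 1.31 CPM in TBK1-WT control. The call of Socs3 was lost without replicate 2 or 3 of either group. The interferon beta gene Ifnb1 had 0, 2 and 0 counts in TBK1-cKD control and 0, 0 and 0 in TBK1-WT control, so a difference in it was not detectable at this depth. Fitted over all 24 libraries, 4 of the regulatory factors and STATs were called lower, and the calls of Stat2, Ifnar2 and Ifngr1 were lost.

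Of 28 tested genes of nucleic acid and TLR sensing 2 were higher (7.1%), 12 were lower (42.9%, background 10.7%) and 14 did not pass the test. Tlr9, the receptor for unmethylated DNA, had 18.3, 15.5 and 19.5 CPM in TBK1-cKD control and 42.2, 46.1 and 44.5 CPM in TBK1-WT control, a change of −1.31 ± 0.066 (SE, adjusted p = 1.65e-09). Ddx58, which encodes RIG-I, fell by 0.61 and Ifih1, which encodes MDA5, by 0.40. Both are also counted among the interferon-stimulated genes. Tlr7, the receptor for R837, had 194, 162 and 176 CPM in TBK1-cKD control and 271, 229 and 230 CPM in TBK1-WT control, a change of −0.45 (adjusted p = 0.000325). Tlr5, the flagellin receptor, was low in both groups and fell by 1.07. In the fit of all 24 libraries 6 sensing genes were called lower.

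Among antigen presentation genes more were called lower than higher. For MHC class I, 13 of 23 tested genes were lower (56.5%, background 10.7%) and 10 did not pass the test. The median change was −0.21. Nlrc5, the transactivator of class I genes, had 59.6, 51.2 and 51.3 CPM in TBK1-cKD control and 72.3, 75.5 and 74.7 CPM in TBK1-WT control, a change of −0.45. The peptide transporter Tap1 fell by 0.44, and the non-classical heavy chains H2-Q6 and H2-Q7 fell by 1.53 and 1.11, although reads of the H2-Q genes cannot be assigned with certainty. For MHC class II and costimulation, 1 of 17 tested genes was higher (5.9%), 8 were lower (47.1%) and 8 did not pass the test. H2-Aa fell by 0.40, H2-Ab1 by 0.34, H2-Eb1 by 0.48 and Icosl, the ligand of the T-cell receptor ICOS, by 0.74. With all 24 libraries in the fit 4 class I members and 2 class II members were called lower, and the calls of Nlrc5, Tap1, H2-Aa, H2-Ab1 and H2-Eb1 were lost.

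**Figure D3:**
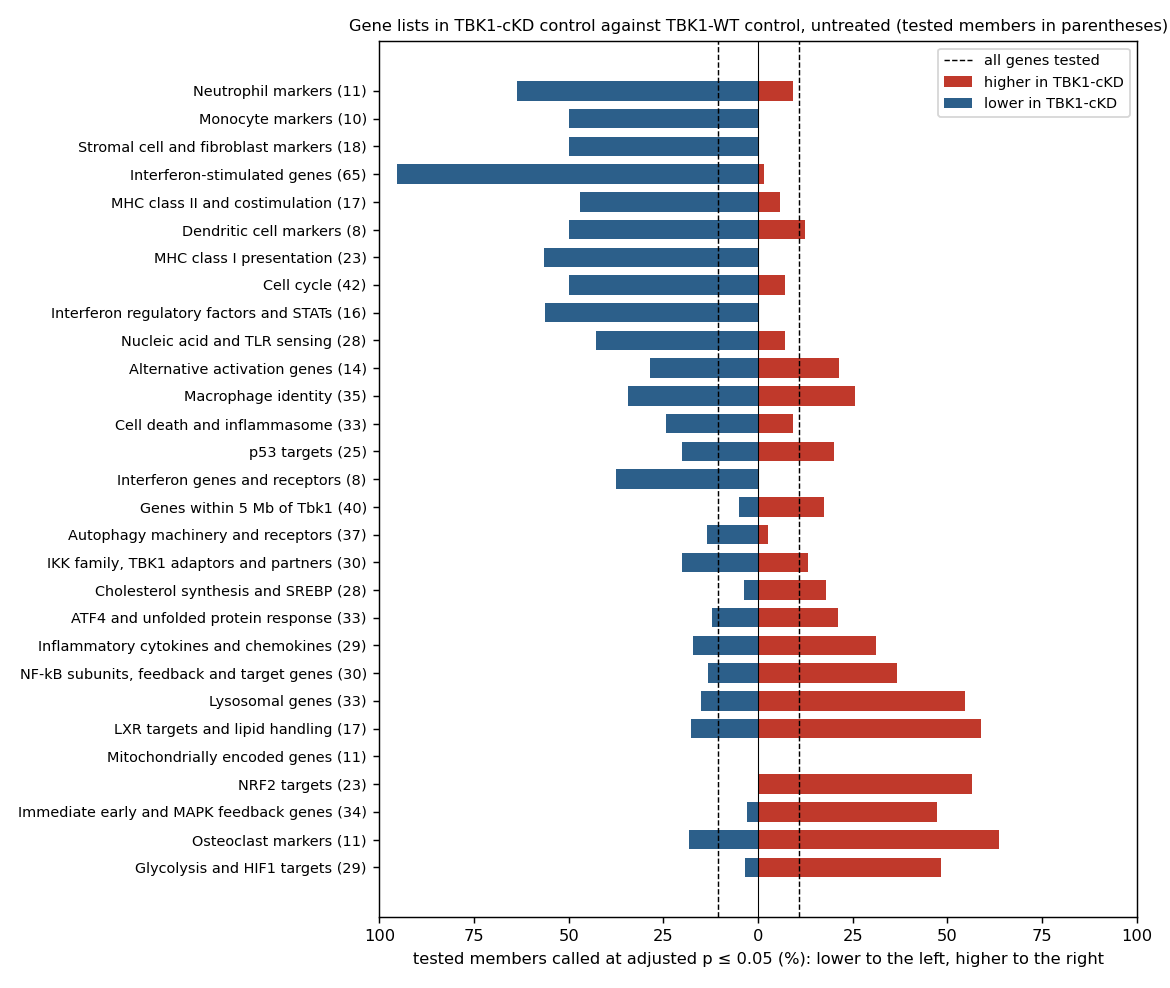
Share of the tested members of each list that was called higher (red, to the right) or lower (blue, to the left) in TBK1-cKD control against TBK1-WT control, in percent, for lists with at least 8 tested members. The number tested stands in parentheses, the lists are ordered by median change, and the dashed lines mark the 10.7% of all genes called in each direction. Interferon-stimulated genes reach 95.4% on the lower side.

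Of 29 tested cytokines and chemokines 9 were higher (31.0%), 5 were lower (17.2%) and 15 did not pass the test. The background was 10.7% in each direction. Il1rn, the secreted antagonist of the interleukin-1 receptor, had 118, 152 and 139 CPM in TBK1-cKD control and 58.9, 70.5 and 64.0 CPM in TBK1-WT control, a change of 1.07 ± 0.11 (SE, adjusted p = 5.34e-06). The monocyte-attracting chemokine Ccl2 had 110, 128 and 110 CPM in TBK1-cKD control and 66.8, 76.0 and 70.0 CPM in TBK1-WT control, a change of 0.71. Its neighbour Ccl7 rose by 0.59 and Cxcl14 by 0.78, while Cxcl16, the ligand of CXCR6, fell by 0.30. Of 30 tested NF-kB genes 11 were higher (36.7%) and 4 lower (13.3%). Tnfaip3, which encodes the feedback inhibitor A20, had 52.3, 58.9 and 57.8 CPM in TBK1-cKD control and 34.0, 37.9 and 35.9 CPM in TBK1-WT control, a change of 0.64 (adjusted p = 3.13e-06). Tnfaip2 rose by 0.31, the antioxidant enzyme Sod2 by 0.22 and Nfkbid, a nuclear IkB protein, by 0.27, while Nfkbiz, another nuclear IkB protein, fell by 0.55. Fitted over all 24 libraries, 2 NF-kB genes and 5 cytokine genes were called higher, and the calls of Ccl7, Cxcl16, Sod2 and Nfkbid were lost. Leaving out replicate 1 of TBK1-WT control or replicate 2 of TBK1-cKD control gave 6 and 7 NF-kB genes higher.

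Of 33 tested cell death and inflammasome genes 3 were higher (9.1%) and 8 were lower (24.2%), against 10.7% of all genes in each direction. Bcl2l11, the pro-apoptotic protein BIM, fell by 0.33, and Bcl2l1, the anti-apoptotic protein BCL-XL, rose by 0.21. Casp4, the sensor of cytosolic lipopolysaccharide also called caspase-11, fell by 0.30, and its call was lost without replicate 1 of TBK1-WT control and without replicate 2 or 3 of TBK1-cKD control. In the fit of all 24 libraries the calls of Casp4 and Bcl2l1 were lost and 2 cell death genes were called lower, against 5 without replicate 3 of TBK1-cKD control. Of 37 tested autophagy genes 1 was higher (2.7%) and 5 were lower (13.5%), against 10.7% of all genes in each direction. With all 24 libraries in the fit 1 autophagy gene was called higher and 1 lower. Ulk2, a kinase that starts autophagy, fell by 0.31, and Mitf, a factor that drives lysosomal genes, rose by 0.25.

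Some surface receptors of monocytes and macrophages were much lower, while Adgre1 did not pass the test in any run (−0.055 to −0.016). Ccr2, the receptor for Ccl2, had 38.7, 40.8 and 45.7 CPM in TBK1-cKD control and 131, 130 and 132 CPM in TBK1-WT control, a change of −1.66 ± 0.057 (SE) with the smallest adjusted p of all genes, 2.5e-11. Cx3cr1, the receptor for fractalkine, had 112, 100 and 115 CPM in TBK1-cKD control and 213, 228 and 224 CPM in TBK1-WT control, a change of −1.02. Axl, a receptor of the TAM family that clears dying cells, had 95.8, 104 and 105 CPM in TBK1-cKD control and 238, 238 and 255 CPM in TBK1-WT control, a change of −1.26; it was named after its values were seen, as the gene with the next smallest p. Of 35 macrophage identity genes 9 were higher (25.7%) and 12 lower (34.3%), with a median of −0.05, against 10.7% of all genes in each direction. Csf1r, the receptor for M-CSF, fell by 0.30, Maf by 0.36 and Mrc1, the mannose receptor CD206, by 0.46, while the scavenger receptors Msr1, Cd36 and Stab1 each rose by 0.36. Csf1r was also named after its values were seen. With all 24 libraries in the fit 4 members of the list were called higher and 10 lower, and the call of Stab1 was lost. Without replicate 1 of TBK1-WT control 5 were called higher.

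Marker lists of other bone marrow cells, most of them at trace levels, did not all move one way. Of the tested markers 5 of 10 were lower for monocytes, 4 of 8 for dendritic cells and 3 of 6 for lymphocytes, 50.0% each. For dendritic cells 1 was higher (12.5%) and for lymphocytes 1 (16.7%), against 10.7% of all genes in each direction. Without replicate 1 of TBK1-WT control, and with DESeq2 or the 6 libraries alone, 3 monocyte markers were called lower. For erythroid cells and megakaryocytes 1 of 6 was higher (16.7%) and 5 did not pass the test. For mast cells and basophils 1 of 3 was higher and 1 lower (33.3% each). In bulk RNA fewer cells of a type and less RNA per cell cannot be told apart. The summed level of 4 monocyte markers was 39.1 to 45.1 CPM in TBK1-cKD control and 134 to 136 CPM in TBK1-WT control, nearly all of it Ccr2. The summed level of 5 neutrophil markers was 1.26 to 1.74 CPM in TBK1-cKD control and 3.88 to 5.47 CPM in TBK1-WT control. Ly6g, a defining neutrophil marker, had 0 counts in each TBK1-cKD control library and 0, 1 and 1 in TBK1-WT control. S100a9, a subunit of calprotectin, had 0.222, 0.488 and 0.124 CPM in TBK1-cKD control and 3.45, 2.52 and 1.88 CPM in TBK1-WT control, a change of −3.29. The granule genes Ngp and Ltf fell by 4.12 and 3.24 from levels of at most 2.38 CPM. Of 11 tested neutrophil markers 7 were lower (63.6%) and 1 higher (9.1%). The exception was Mmp9, a protease that macrophages also make.

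Immunoglobulin genes of plasma cells fell as well: Igkc had 2.14, 1.79 and 2.65 CPM in TBK1-cKD control and 14.6, 5.65 and 8.17 CPM in TBK1-WT control, and Igha and Jchain fell by 2.18 and 2.42. The summed level of 4 lymphocyte markers was at most 0.124 CPM in TBK1-cKD control and at most 0.171 CPM in TBK1-WT control. Cd3e and Ncr1, markers of T cells and natural killer cells, each had 0 counts in every TBK1-cKD control library and 1, 0 and 0 counts in TBK1-WT control. Of 18 tested stromal genes 9 were lower (50.0%, background 10.7%) and 9 did not pass the test. Col1a1, a chain of type I collagen, had 10.8, 9.28 and 8.68 CPM in TBK1-cKD control and 17.1, 19.98 and 21.7 CPM in TBK1-WT control, a change of −1.01. The summed level of 3 stromal markers was 16.8 to 21.3 CPM in TBK1-cKD control and 32.0 to 39.1 CPM in TBK1-WT control. Of 11 tested osteoclast markers 7 were higher (63.6%) and 2 lower (18.2%). Ctsk, a collagen-degrading protease, had 20.3, 18.0 and 16.9 CPM in TBK1-cKD control and 13.4, 13.7 and 13.6 CPM in TBK1-WT control. Calcr, which marks mature osteoclasts, was at 0 in all 6 libraries. The part of these marker changes in the other results was not tested.

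Of 29 tested glycolysis and HIF1 target genes 14 were higher (48.3%), 1 was lower (3.4%) and 14 did not pass the test. The background was 10.7% in each direction, and the TBK1-cKD libraries differed among themselves. The list had a median change of 0.53. Slc2a1, the glucose transporter GLUT1, had 127, 397 and 351 CPM in TBK1-cKD control and 82.2, 117 and 103 CPM in TBK1-WT control, a change of 1.53 ± 0.37 (SE, adjusted p = 0.00683). Ldha, the enzyme that makes lactate, had 478, 725 and 687 CPM in TBK1-cKD control and 365, 454 and 428 CPM in TBK1-WT control, a change of 0.60. Ak4, a mitochondrial adenylate kinase, had 19.4, 76.2 and 66.5 CPM in TBK1-cKD control and 10.8, 19.0 and 16.5 CPM in TBK1-WT control, a change of 1.79. Pfkfb3, which makes the activator of phosphofructokinase, rose by 0.65 and the platelet isoform Pfkp by 0.49, while the transporter Slc2a3 fell by 0.26. Replicate 1 was the lowest library of its group for Slc2a1, Ldha and Ak4 in both genotypes.

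The median member of the glycolysis and HIF1 list stood at 0.04, 0.79 and 0.70 in the TBK1-cKD libraries and at −0.20, 0.11 and 0.06 in the TBK1-WT libraries. Leaving out replicate 1 of TBK1-cKD control gave 24 genes higher and a median of 0.74. Leaving out replicate 2 or replicate 3 of TBK1-cKD control gave 3 and 4 genes higher, and leaving out replicate 1 of TBK1-WT control gave 4. With both replicate 1 libraries left out, a choice made after the data were seen, 23 were higher. The fit of all 24 libraries and DESeq2 each called 6 higher, and the fit without a count filter called 26. Leaving out replicate 2 of TBK1-WT control gave 9. The call of Slc2a3 was lost in the fit of all 24 libraries and that of Pfkp without replicate 2 of TBK1-cKD control. The calls of Ldha and Ak4 were lost without replicate 1 of TBK1-WT control and without replicate 2 or 3 of TBK1-cKD control.

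**Figure D4:**
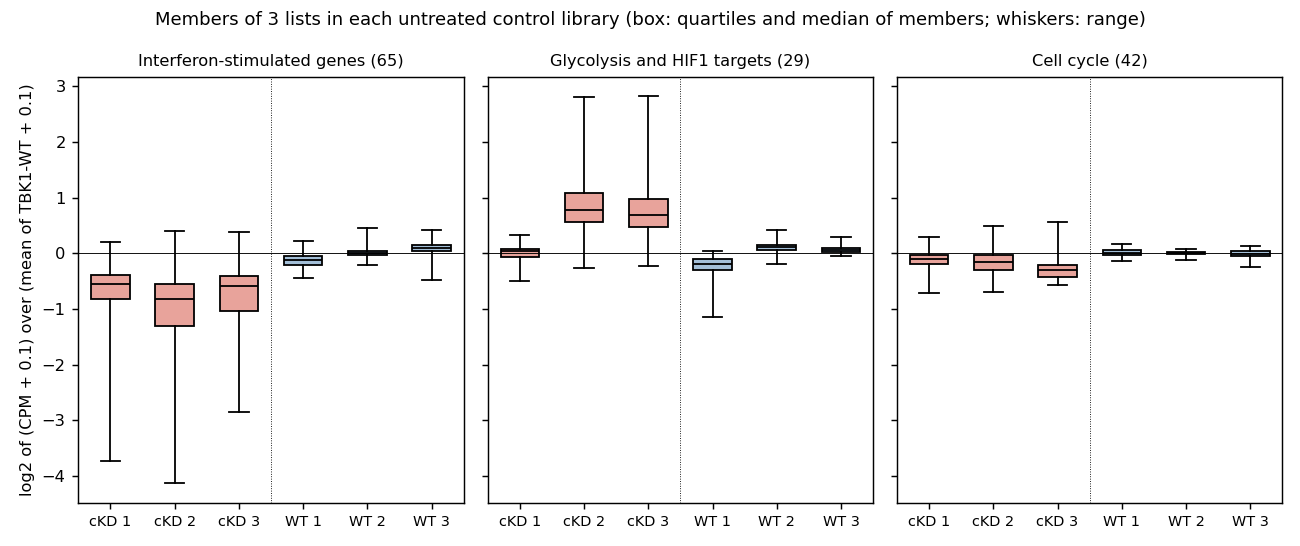
Members of 3 lists in each of the 6 untreated control libraries (x axis, TBK1-cKD left of TBK1-WT), as log2 of CPM plus 0.1 over the TBK1-WT mean plus 0.1 (y axis). Boxes give the quartiles and median over members, and whiskers their range. Interferon-stimulated genes had medians of −0.83 to −0.55 in the TBK1-cKD libraries, cell cycle genes of −0.30 to −0.10, and glycolysis and HIF1 targets stood near the TBK1-WT level in replicate 1 of TBK1-cKD and above it in replicates 2 and 3.

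Of 33 tested lysosomal genes 18 were higher (54.5%), 5 were lower (15.2%) and 10 did not pass the test. The background was 10.7% in each direction. Gpnmb, a membrane glycoprotein of lipid-laden macrophages, was among the most abundant, with 12558, 13388 and 13708 CPM in TBK1-cKD control and 8211, 8356 and 8287 CPM in TBK1-WT control, a change of 0.67 ± 0.046 (SE, adjusted p = 5.97e-08). The protease Ctsd had 11351, 11577 and 12320 CPM in TBK1-cKD control and 9178, 9149 and 9462 CPM in TBK1-WT control, a change of 0.34. The proton pump subunits Atp6v0d2 and Atp6v1h rose by 0.40 and 0.29 and the tetraspanin Cd63 by 0.26. Ctsc, the protease that activates neutrophil serine proteases, went the other way, with 182, 156 and 172 CPM in TBK1-cKD control and 344, 297 and 320 CPM in TBK1-WT control, a change of −0.91. Fitted over all 24 libraries, 4 lysosomal genes were called higher, and the calls of Ctsd, Atp6v1h and Cd63 were lost.

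Of 17 tested LXR targets and lipid genes 10 were higher (58.8%), 3 were lower (17.6%) and 4 did not pass the test. The cholesterol exporter Abca1 had 627, 656 and 720 CPM in TBK1-cKD control and 514, 519 and 486 CPM in TBK1-WT control, a change of 0.40. The desaturase Scd2 rose by 0.91 and the fatty acid binding proteins Fabp4 and Fabp5 by 0.36 and 0.32. Cd5l, a secreted protein induced by LXR, fell by 0.60. Of 23 tested NRF2 targets 13 were higher (56.5%) and 10 did not pass the test. Hmox1, which degrades haem, had 389, 533 and 474 CPM in TBK1-cKD control and 278, 302 and 315 CPM in TBK1-WT control, a change of 0.64 (adjusted p = 0.00024). Prdx1, Srxn1 and Txnrd1, enzymes of thiol redox control, rose by 0.37, 0.33 and 0.30. In the fit of all 24 libraries 4 LXR genes and 5 NRF2 genes were called higher, and the call of Fabp4 was lost. Without replicate 2 of TBK1-cKD control 8 NRF2 genes were called higher. Of 28 tested cholesterol synthesis genes 5 were higher (17.9%) and 1 lower (3.6%). Of 33 tested ATF4 and unfolded protein response genes 7 were higher (21.2%) and 4 lower (12.1%), against 10.7% of all genes in each direction. These counts of higher genes moved to 2 and 4 without replicate 1 of TBK1-WT control and to 2 and 3 without replicate 2 of TBK1-cKD control.

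Immediate early and MAPK feedback genes leaned upward, with 16 of 34 tested genes higher (47.1%, background 10.7%) and 1 lower (2.9%). Egr2 had 87.5, 102 and 101 CPM in TBK1-cKD control and 51.0, 63.3 and 56.1 CPM in TBK1-WT control, a change of 0.77 (adjusted p = 1.2e-05). The MAP kinase phosphatases Dusp4 and Dusp1 rose by 0.62 and 0.38 and Myc by 0.45, while Zfp36l1, which promotes mRNA decay, fell by 0.45. Cell cycle genes leaned downward, with 3 of 42 higher (7.1%), 21 lower (50.0%, background 10.7%) and a median of −0.18. Top2a, a topoisomerase of dividing cells, had 328, 302 and 271 CPM in TBK1-cKD control and 381, 380 and 362 CPM in TBK1-WT control, a change of −0.32. The mitotic kinase Plk1 fell by 0.37 and cyclin Ccnd2 by 0.63. With all 24 libraries in the fit 2 cell cycle genes were called lower, and the calls of Top2a and Plk1 were lost. Without replicate 3 of TBK1-cKD control 13 were called lower. Without replicate 1 of TBK1-WT control or replicate 2 of TBK1-cKD control 10 immediate early genes were called higher.

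Among the genes of largest rise, Slc15a2, a peptide transporter, had 3.05, 2.64 and 1.82 CPM in TBK1-cKD control and 0.190, 0.132 and 0.221 CPM in TBK1-WT control, a change of 3.83 ± 0.32 (SE, adjusted p = 4.89e-07). Eps8l1, an actin regulator, had 12.6, 10.9 and 11.7 CPM in TBK1-cKD control and 2.90, 2.47 and 3.27 CPM in TBK1-WT control, a change of 2.05. Mmp9, a gelatinase, had 93.4, 113 and 101 CPM in TBK1-cKD control and 30.8, 35.5 and 36.9 CPM in TBK1-WT control, a change of 1.58. Adam19, a membrane protease, had 20.5, 20.6 and 23.4 CPM in TBK1-cKD control and 7.70, 7.65 and 7.32 CPM in TBK1-WT control, a change of 1.501. Rap1gap, Trim29, Trpc4 and Prdm16 rose by 1.94, 1.61, 1.55 and 1.54 at levels below 4 CPM. Of the largest falls, Adgre4, a macrophage receptor related to F4/80, had 1.48, 1.42 and 1.32 CPM in TBK1-cKD control and 7.06, 5.34 and 5.44 CPM in TBK1-WT control, a change of −2.08. Treml2, a receptor of the TREM family, fell by 1.87. Genes entered this paragraph only if the groups did not overlap.

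Genes near Tbk1 on chromosome 10 were listed because a targeted locus can carry flanking sequence of another strain. Of 40 tested genes starting within 5 Mb, 7 were higher and 2 lower, against 10.7% of all genes in each direction. Hmga2, a chromatin protein 1185.2 kb from Tbk1, had 138, 144 and 134 CPM in TBK1-cKD control and 79.5, 84.4 and 81.9 CPM in TBK1-WT control, a change of 0.76 ± 0.044 (SE, adjusted p = 8.63e-09). Lyz2, the macrophage lysozyme gene, had 12396, 11793 and 12710 CPM in TBK1-cKD control and 11115, 9792 and 9873 CPM in TBK1-WT control, a change of 0.26, and its call was lost in the fit of all 24 libraries. The genotype of the flanking sequence was not tested.

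The same TBK1 contrast was tested in IKKe knockout cells, in 6 untreated libraries that the comparison above does not use. There 26.9% of genes were called in either direction, 2118 (14.9%) higher and 1722 (12.1%) lower in TBK1-cKD IKKe knockout, and the TBK1 effect itself differed between the backgrounds for 2013 genes (14.1%), 1225 of them upward in IKKe knockout cells (8.59%) and 788 downward (5.53%), or 524 downward without replicate 1 of TBK1-cKD IKKe knockout. Of the 1525 genes higher in TBK1-cKD control, 645 (42.3%) were also called higher in IKKe knockout cells and 97 (6.4%) were called lower. Of the 1529 genes lower in TBK1-cKD control, 660 (43.2%) were called lower there and 251 (16.4%) were called higher. In that background Tbk1 had 97.9, 101 and 99.0 CPM in TBK1-cKD IKKe knockout and 114, 115 and 113 CPM in TBK1-WT IKKe knockout. Ikbke had 89.9, 85.9 and 90.9 CPM in libraries carrying the label TBK1-cKD IKKe knockout, not below TBK1-cKD control, against 39.9, 38.4 and 39.1 CPM in TBK1-WT IKKe knockout. The sources used here do not give the exons removed from Ikbke, so its RNA does not check that label.

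Most interferon-stimulated genes moved the opposite way there: 49 of 65 were higher and 2 lower in TBK1-cKD IKKe knockout, with a median of 0.42, and the difference of the effects passed the test for 62. Irf7 had 381, 311 and 332 CPM in TBK1-cKD IKKe knockout and 194, 216 and 266 CPM in TBK1-WT IKKe knockout. MHC class I genes did likewise, with 21 of 23 higher and a difference called for 21. Of the glycolysis and HIF1 list 2 were higher and 3 lower there, with a difference called for 11. Genes that moved the same way in both backgrounds included Ccr2 (−2.27 in IKKe knockout cells), S100a9 (−3.53), Slc15a2 (3.92), Eps8l1 (2.21) and Itgax, the integrin CD11c (0.68 in IKKe knockout cells and 0.69 in control cells). Mmp9 rose by 4.73 in IKKe knockout cells, to 1039, 1032 and 1053 CPM in TBK1-cKD IKKe knockout against 34.6, 41.3 and 42.7 CPM in TBK1-WT IKKe knockout. Vcam1, an adhesion molecule, fell by 1.35 in TBK1-cKD control and rose by 3.46 in TBK1-cKD IKKe knockout. Of 42 cell cycle genes 29 were lower and 13 did not pass the test there, with a difference called for 6.

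**Figure D5:**
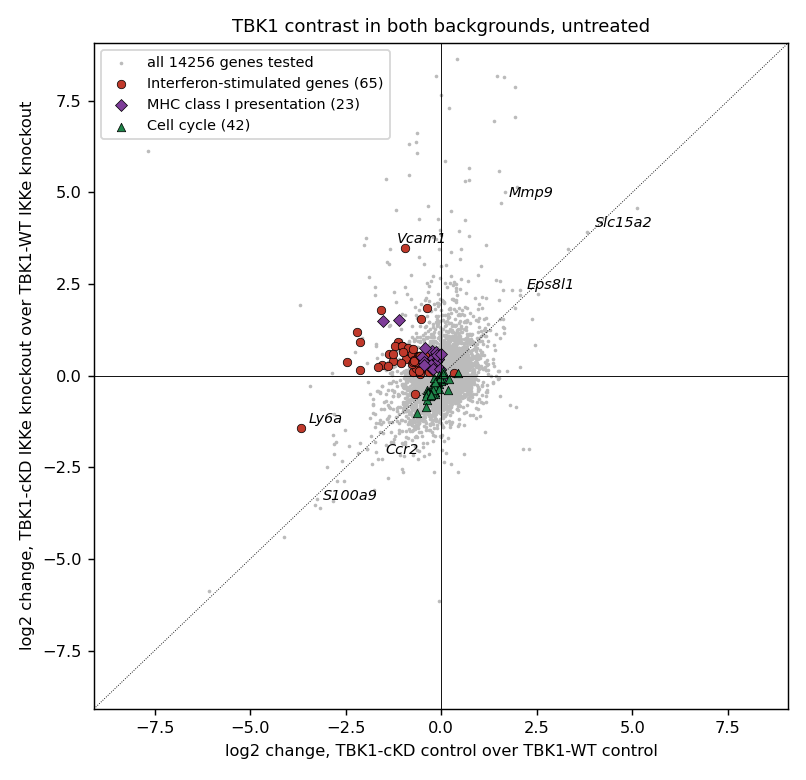
Log2 change of each of 14256 genes in TBK1-cKD control over TBK1-WT control (x axis) against that in TBK1-cKD IKKe knockout over TBK1-WT IKKe knockout (y axis), untreated. The dotted line marks equal changes; red circles are interferon-stimulated genes, purple diamonds MHC class I genes and green triangles cell cycle genes. Most red circles lie in the upper left, lower with TBK1 altered alone (median −0.65) and higher on the IKKe knockout background (median 0.42).

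After 8 h of R837 the contrast of TBK1-cKD control with TBK1-WT control, fitted over all 24 libraries, called 8.89% of 14681 genes, 657 higher (4.48%) and 648 lower (4.41%). Of the genes called in untreated cells, 348 of the 1525 higher ones were called higher after R837 and 9 lower, and 353 of the 1529 lower ones were called lower and 30 higher. These shares set unlike fits side by side, since the untreated calls come from the 12 untreated libraries; in the fit of all 24 libraries the untreated contrast called 353 genes higher and 389 lower. The effect differed between R837 and untreated cells for 129 genes (0.879%), 99 of them with a higher value after R837. Leaving out 1 untreated library other than replicate 1 of TBK1-cKD control, or replicate 3 of TBK1-cKD control R837, gave 39 to 64. Of the 65 interferon-stimulated genes 9 were higher and 4 lower after R837, with a median of 0.06, and the difference was called for 25. Tbk1 had 103, 93.4 and 107 CPM in TBK1-cKD control and 148, 118 and 123 CPM in TBK1-WT control after R837. Ccr2 and Adam19 kept their directions after R837, with changes of −1.57 and 2.15. The R837 libraries of a group spread more widely than the untreated ones. Without replicate 1 of TBK1-WT control R837 the contrast called 367 genes higher and 407 lower, against 1007 lower without replicate 2 of that group. Replicate 2 of TBK1-cKD control R837 had the fewest counts, 19.7 M, and 14226 genes with a count, against 17519 to 19218 in the other R837 libraries. Without it the contrast called 478 genes higher and 442 lower. The fit of all 24 libraries includes it.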

How the data were processed

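Counts per gene and RPKM per gene were deposited by the authors in 1 file per library (24 libraries, 52636 genes). The submitters' processing notes name the aligner GSNAP and the build GRCm38; how reads were counted, and on which annotation, is not given in the sources used here. Strand is not marked by the kit used, so overlapping and antisense genes cannot be told apart, and near-identical copies (H2-Q, Ly6, Ifit and Gbp genes) are uncertain. The deposited RPKM served only to set levels of different genes side by side. Treatment was read from the titles, since a protocol text naming R837 stands on every record, as does one naming wild-type mice. Replicate numbers follow record order, where the records run in rounds that each hold every condition once. No label links libraries of a round by mouse or batch, and no pairing was fitted.

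The counts were tested with edgeR 4.0.16 (TMM, filterByExpr with a minimum count of 10 and a minimum total of 15, quasi-likelihood F test, Benjamini-Hochberg, threshold 0.05), with 1 mean per group over the 12 untreated libraries (8 residual degrees of freedom). R837 contrasts used all 24. The SE is the size of the log2 change over the square root of F. The fit was tested on simulated data. Depth ran from 19.7 to 41.3 M counts per library.

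The members and lists were chosen with earlier results of these data known. Named genes were Tbk1, Ikbke, N4bp1, Casp8, the kinase partners, the 12 largest called rises and falls with a mean of at least 1 CPM and no overlap, and at most 6 called members per list or within 5 Mb of Tbk1 by smallest p; Ifit1, Isg15, Rsad2, Irgm1, Cxcl10, Ifi27, Ifi205, Ifit1bl2, Axl and Csf1r were named after their values were seen. Predicted genes are not described. Promoters are from RefSeq (GRCm38.p6). Alternatives were RLE size factors, no count filter (any gene with a count), DESeq2 1.42.0, the 6 libraries alone, all 24 libraries, and leaving out each library.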

Additional observations from a re-analysis of the deposited data

Results flagged for a closer look

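For 81 of the 127 genes described above, the TBK1 effect differed between the IKKe knockout and the control background in untreated cells. The test was edgeR's test of the difference itself (adjusted p at most 0.05 over 14256 genes), which called 14.1% of all genes. Many described genes were picked by their change in untreated control cells. That change is subtracted here, so the shares are not directly comparable. Each value below is the log2 change in IKKe knockout cells minus that in control cells. Socs3 lies outside the 127, and its difference was also called, with a value of 3.54.

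Among interferon-stimulated genes, their regulators and sensors it was Ifi205 4.44, Cxcl10 3.38, Iigp1 2.83, Ifi206 2.30, Ms4a4c 2.26, Ly6a 2.24, Ifit1 2.05, Irf7 1.87, Rsad2 1.83, Ly6e 1.66, Zbp1 1.63, Isg15 1.28, Ddx58 1.14, Irgm1 1.10, Tlr5 −1.09, Ifih1 0.87, Stat2 0.84, Tlr9 0.60, Irf9 0.45, Ifngr1 0.41, Tlr7 0.34, Tmem173 0.34 and Ifi27 −0.25. Among antigen presentation genes it was H2-Q6 3.03, H2-Q7 2.63, H2-Eb1 1.58, H2-Ab1 1.56, H2-Aa 1.47, Tap1 0.81, Nlrc5 0.74 and Icosl 0.40. Among kinase partners, NF-kB, chemokine, cell death and autophagy genes it was Sod2 1.59, Ccl2 −1.34, Ccl7 −1.10, Cxcl16 1.10, Tnfaip2 1.08, Casp4 1.04, Ikbke 0.87, N4bp1 0.77, Tnfaip3 0.68, Nfkbiz 0.66, Bcl2l11 0.46, Cxcl14 −0.46, Sqstm1 0.43, Bcl2l1 −0.39, Tank 0.39, Traf3 0.33, Tbk1 0.25 and Ulk2 0.20. Of the other described genes, the difference was positive for Vcam1 4.81, Mmp9 3.15, Adgre4 3.12, Treml2 1.37, Ctsc 0.81, Cx3cr1 0.76, Ctsk 0.72, Axl 0.70, Abca1 0.62, Adam19 0.55, Csf1r 0.51, Lyz2 0.43, Msr1 0.42, Fabp4 0.35, Txnrd1 0.25, Cd5l 0.24 and Adgre1 0.18, and negative for Ak4 −2.59, Slc2a1 −2.08, Hmga2 −0.86, Col1a1 −0.85, Ldha −0.67, Ccr2 −0.62, Pfkp −0.62, Ccnd2 −0.39, Myc −0.38, Cd36 −0.36, Slc2a3 −0.36, Mrc1 −0.31, Stab1 −0.20, Cd63 −0.17 and Atp6v1h −0.15.

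For 18 of the 127 described genes the TBK1 effect in control cells differed between R837 and untreated. The same test was run over 14681 genes of the fit to all 24 libraries and called 0.879% of them. The log2 change after R837 minus that in untreated cells was Cxcl10 2.75, Iigp1 2.24, Ifi206 2.21, Rsad2 2.04, Vcam1 1.87, Ifit1 1.75, Irgm1 0.96, Zbp1 0.95, H2-Q6 0.94, Ddx58 0.90, Myc −0.84, Ctsc 0.82, Mmp9 −0.76, Ifih1 0.74, Mrc1 0.68, Adam19 0.65, Bcl2l11 0.50 and Cx3cr1 0.50. For Socs3, outside the 127, the difference after R837 was also called, with a value of 1.14. Both contrasts share the untreated TBK1-cKD control and TBK1-WT control libraries with the comparison of the report.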

How the results depend on the processing

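No called gene of those described changed direction under any alternative run. Of 178 called genes named by the rule, the number still called was 178 with RLE size factors, 176 with no count filter, 171 with DESeq2, 174 of the 175 with a value in the 6 libraries alone, 105 over all 24 libraries, and 162 to 174 when 1 of the 6 libraries was left out. Without both replicate 1 libraries, chosen after the data were seen, it was 168.

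With all 24 libraries setting the spread, 353 genes were higher and 389 lower in TBK1-cKD control, 934 higher and 563 lower in TBK1-cKD IKKe knockout, and the difference between backgrounds was called upward for 530 and downward for 158. The wider spread of the R837 libraries enters that fit, with a common coefficient of variation of 0.1158 against 0.0464. Leaving out 1 library gave 937 to 1539 genes higher and 1078 to 1687 lower in TBK1-cKD control, and a difference between backgrounds downward for 524 to 996 genes. For R837, leaving out 1 library gave 367 to 741 genes higher and 407 to 1007 lower, and a difference from untreated cells upward for 39 to 111 and downward for 6 to 31. That difference was downward for 18 genes with no count filter, and upward for 189 and downward for 77 with DESeq2; the cause was not tested. No paired analysis was run because the labels give no replicate numbers, and those used here follow record order. Whether libraries of the same number share a batch was not tested. Genes under about 1 CPM rest on few reads, which limits the marker genes of other cells most.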
